A study of Mus musculus with 16 samples.

Results

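The genes described here are 9 genes of the interferon response, Irf1, Irf3, Irf7, Irf9, Stat2, Ifit1, Ifit3, Isg15 and Ifnar1, found by symbol among the 24539 genes listed in each read count table. They were chosen by symbol and by ribosome-bound read counts, since Irf1 had such reads with betaine and none without it. Livers of male C57BL/6 mice, aged 16 weeks, were measured after 8 weeks on a high-fat diet (HF) or on a high-fat diet plus Betaine (HB), a methyl donor. The kinds of library were total polyadenylated mRNA, mRNA pelleted with ribosomes and their nascent chains (RNC), and fragmented RNA immunoprecipitated for N6-methyladenosine (m6A), with 2 libraries per diet and kind. Both groups received the high-fat diet, so no result here speaks of a diet without it. Per the labels' protocol, a pooled sample from independent experiments was sequenced for mRNA and RNC, so p-values measure the spread between these pools, not between mice.

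Type I interferon is sensed by a receptor with the chains Ifnar1 and Ifnar2. The receptor's kinases phosphorylate Stat2, which acts with Irf9 in a complex that enters the nucleus and binds the interferon-stimulated response element (ISRE) of target genes such as Ifit1, Ifit3 and Isg15. Irf3 and Irf7 are the transcription factors that switch on interferon genes after viral nucleic acid is sensed, and Irf1 is a transcription factor induced above all by IFN-gamma through the GAS element of its promoter. In liver, hepatocytes and Kupffer cells both respond to interferon.

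The promoters are shown first because they separate the members into those that carry an ISRE close to the start site and those that do not. The sequences are from RefSeq (GRCm38.p6, the same assembly as mm10), with the transcript strand 5′ to 3′, and matches in capitals. All 9 members had an entry. The ISRE was searched as GAAA, any 2 bases and GAAA on both strands, overlaps included, in windows of 250 bases before to 50 bases after each start site, and was present in 3.44% of 32851 such windows. It was found for 4 of the 9 members, once in Stat2, at 2 places in Ifit1, at 2 places in Ifit3 and at 3 overlapping places in Isg15. The GAS element, searched as TTCNNNGAA, was present in 8.3% of windows, and among the members in those of Irf1 and Ifnar1. Neither motif was found in the windows of Irf3, Irf7 or Irf9. The 250 bases upstream of Stat2 (chr10:128270248-128270497, plus strand) and Ifit1 (chr19:34640639-34640888, plus strand) are given in full, because both mRNAs were lower with betaine.
Stat2: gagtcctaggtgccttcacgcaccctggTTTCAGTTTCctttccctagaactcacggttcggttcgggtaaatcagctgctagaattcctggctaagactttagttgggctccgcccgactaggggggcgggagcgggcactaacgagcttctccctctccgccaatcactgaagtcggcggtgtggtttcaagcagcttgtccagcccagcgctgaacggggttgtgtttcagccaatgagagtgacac
Ifit1: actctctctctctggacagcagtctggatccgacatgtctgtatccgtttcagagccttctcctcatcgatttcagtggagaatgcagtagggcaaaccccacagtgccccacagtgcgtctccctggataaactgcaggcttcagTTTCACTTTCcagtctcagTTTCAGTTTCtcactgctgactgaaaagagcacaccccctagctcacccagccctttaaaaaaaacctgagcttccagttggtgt
The matches with 10 flanking bases on each side are given for Ifit3 (the first at chr19:34583363-34583392, the second at chr19:34583397-34583426, plus strand), Isg15 (the middle of its overlapping matches, chr4:156200871-156200900, minus strand) and Irf1 (GAS, chr11:53769914-53769942, plus strand), whose mRNA did not pass the test.
Ifit3, first: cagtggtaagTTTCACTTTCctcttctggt
Ifit3, second: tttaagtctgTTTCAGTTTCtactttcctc
Isg15: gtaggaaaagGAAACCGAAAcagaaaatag
Irf1: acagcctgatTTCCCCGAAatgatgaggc
Counted from the transcript start, the matches lay at positions -104 to -95 and -85 to -76 in Ifit1, -156 to -147 and -122 to -113 in Ifit3, and -222 to -213 in Stat2. The presence of a match did not separate the members whose mRNA was lower (Stat2 and Ifit1 with a match, Irf9 without) from the rest (Ifit3 and Isg15 with a match).

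Depth moved with diet in mRNA, where each HF library had at most 11570775 reads and each HB library at least 18011999. The RNC libraries held 5778439 to 8659310 reads. Replicates of HF mRNA, HB mRNA and HF RNC differed by a chi-square per degree of freedom of 34.7, 98.5 and 98.0, whereas the HB RNC pair gave 1.40. The HB RNC libraries were therefore summed and counted as 1 sample, so a pattern seen in both adds little to a pattern seen in 1. Hepatocyte markers were abundant in every mRNA library, with a summed level of 77094 and 82356.5 CPM in HF and 111756 and 105037 CPM in HB. The sum was thus higher in both HB libraries. None of the 7 markers passed the test between diets, and 1 of the 7 log2 changes was negative (median 0.34). CPM are reads scaled to library size after TMM over the 8 mRNA and RNC libraries.

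Components of the interferon signalling complex were lower in total mRNA with betaine. Stat2 and Irf9, which act in that complex, and Ifit1, an effector that binds viral RNA lacking normal cap methylation, fell by 1.70, 1.27 and 1.59 on the log2 scale, and no member rose. These were 3 of 9 members lower at an adjusted p under 0.05 (edgeR quasi-likelihood test on the 4 mRNA libraries, Benjamini-Hochberg over 12817 genes), against 10.1% of all genes called lower and 21.4% called in either direction. The members' median log2 change was -0.29 and 8 of 9 were negative. Over all genes tested the median was 0.01 and 6346 of 12817 were negative. Without TMM, on total read counts, the all-gene median moved to -0.28, so most genes were negative there. All 9 members were negative in that setting, with 3 called lower. In a fit that also held the RNC libraries no gene of 13454 was called (edgeR quasi-likelihood test, 1644 genes at an unadjusted p under 0.05), and the adjusted p of Stat2, Irf9 and Ifit1 became 0.250, 0.378 and 0.756.

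**Figure D1:**
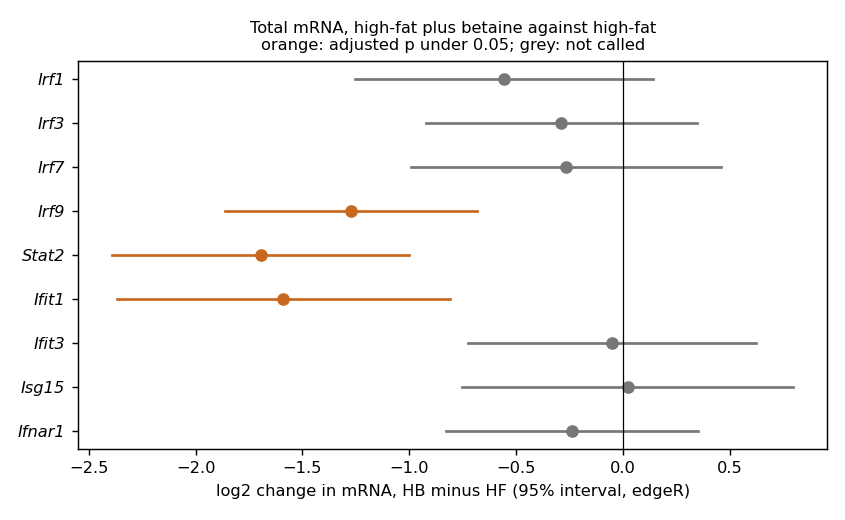
The log2 change in total mRNA (HB minus HF, horizontal axis) of each member, as a point with its 95% interval from the edgeR fit of 4 libraries. Orange marks the members with an adjusted p under 0.05: Irf9, Stat2 and Ifit1, at -1.27, -1.70 and -1.59, have intervals that lie below 0, and the other members' intervals include 0.

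Stat2, a transcription factor of type I and type III interferon signalling, had mRNA levels of 323 and 318 CPM in the HF libraries and 79.2 and 122 CPM in the HB libraries. Both HB values lay far below both HF values. The mRNA was 3.24-fold lower in HB (log2 change -1.70, SE 0.32, 95% interval -2.39 to -1.0, edgeR adjusted p = 0.00781). Without any 1 library the adjusted p stayed between 0.00658 and 0.0294. Per length, Stat2 was the most abundant member in HF mRNA, at 72.4 ± 1.79 deposited RPKM (SD, n = 2). In HB mRNA it came behind Irf3 and Irf7, at 18.5 ± 5.01 RPKM (SD, n = 2). Its HB values overlapped those of Irf7 and lay below both of Irf3.

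Irf9, the DNA-binding partner of Stat2, stood at 71.9 and 82.0 CPM in HF mRNA and at 33.3 and 31.6 CPM in HB mRNA. The diets did not overlap. The mRNA was 2.41-fold lower in HB (log2 change -1.27, SE 0.27, edgeR adjusted p = 0.0110). The call was lost without HF replicate 1 (adjusted p = 0.0520) and without HF replicate 2 (0.0658), with log2 changes of -1.37 and -1.22.

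Ifit1 had 15.6 and 28.1 CPM in HF mRNA and 7.76 and 6.96 CPM in HB mRNA. The HF replicates differed from each other by more than the HB replicates did, but both lay above HB. The mRNA was 3.01-fold lower (log2 change -1.59, SE 0.36, edgeR adjusted p = 0.0134). The call was lost without HF replicate 2 (log2 change -1.15, adjusted p = 0.118) and without HB replicate 1 (-1.64, adjusted p = 0.0548).

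The other 6 members did not pass the test in mRNA. Irf1 had 26.0 and 41.2 CPM in HF and 20.1 and 26.2 CPM in HB, groups that overlapped (log2 change -0.56, 95% interval -1.26 to 0.14, adjusted p = 0.225). Irf3 had 84.8 and 103 CPM in HF and 65.7 and 90.1 CPM in HB (log2 change -0.29, interval -0.92 to 0.35). Irf7 had 59.7 and 86.1 CPM in HF and 45.0 and 77.8 CPM in HB (log2 change -0.27, interval -0.99 to 0.46). In Irf3 and Irf7 the lower HF value lay below the higher HB value. Ifnar1, a receptor chain, had 52.7 and 52.1 CPM in HF and 41.2 and 49.1 CPM in HB. Its groups did not overlap, which held for 31.2% of all genes in that direction and 33.8% in the other, and its log2 change of -0.24 (interval -0.83 to 0.35) was not called. Ifit3, a relative of Ifit1, had 14.8 and 16.3 CPM in HF and 13.6 and 17.0 CPM in HB (log2 change -0.05, interval -0.72 to 0.63). Isg15, a ubiquitin-like protein attached to other proteins during the response, had 12.9 and 20.5 CPM in HF and 13.4 and 21.1 CPM in HB (log2 change 0.02, interval -0.75 to 0.80). For Ifit3 and Isg15 the HF and HB values interleaved, and the intervals still allow changes of over 0.6 in either direction. Ifit3 has a near-identical copy, Ifit3b, between which reads may have been split, so its level is uncertain. Ifit3b itself had 3.94 and 3.62 CPM in HF and 4.66 and 6.26 CPM in HB (log2 change 0.50, adjusted p = 0.394).

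The order of the members by deposited RPKM, which accounts for length, differed between diets in mRNA. In HF it ran Stat2, Irf3, Irf7, Irf9, Isg15, Irf1, Ifit1, Ifit3 and Ifnar1, from 72.4 to 7.41 RPKM. Neighbours overlapped between Irf3 and Irf7, Irf7 and Irf9, Isg15 and Irf1, Ifit1 and Ifit3, and Ifit3 and Ifnar1. In HB it ran Irf3, Irf7, Stat2, Isg15, Irf9, Irf1, Ifit3, Ifnar1 and Ifit1, from 31.0 to 2.27 RPKM, and the first 4 overlapped from each to the next.

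In RNC mRNA the members lay on both sides of their HF levels, and these values, part of which chose the members, are given as a description with no test. Irf1, Irf3 and Ifit3 were higher in both HB libraries than in both HF libraries, and Irf9, Stat2 and Isg15 were lower. Over all 11230 genes with RNC reads, 34.2% were higher and 22.2% lower by the same count, so 3 of 9 in each direction is near the background.

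Irf1 had 0 and 0 reads in HF RNC and 295 and 381 reads in HB RNC, or 42.1 and 40.9 CPM. This was at least 190-fold higher in HB, against a floor of 3 reads over the HF pair. Its mRNA was present in HF at 26.0 and 41.2 CPM, so the absence of RNC reads did not go with absence of the mRNA. The reverse pattern was seen for Isg15, with 20 and 86 reads in HF RNC and 0 and 0 in HB RNC, at least 41.8-fold lower in HB. Reads in both libraries of a diet and none in the other diet were common: 7.89% of genes had 0 reads in both HF libraries and at least 20 in each HB library, and 3.69% the reverse. A further 25.1% of genes had 0 reads in 1 HF library and at least 20 in the other. No gene did so within the HB pair, but that pair was counted as 1 sample, so this is no contrast of diets. Ifit3 was among the 25.1%, with 0 and 237 reads in HF RNC and 264 and 315 in HB RNC. Its log2 difference of 1.13 (HB over HF) was 0.13 without HF replicate 1, and with total counts or RPKM its HB values no longer both lay above HF, leaving 2 members that did.

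Stat2 had the most RNC reads of the members, at 657.5 and 575 CPM in HF and 520.3 and 520.5 CPM in HB. Both HB values were below both HF values, by 1.18-fold against the mean. Irf9 stood at 13.9 and 29.2 CPM in HF and 13.1 and 11.1 CPM in HB, 1.80-fold lower, with an HF spread over which 1 replicate was 2.11 times the other. Irf3 was 160.4 and 194 CPM in HF and 264 and 241 CPM in HB, 1.41-fold higher. The log2 difference of Irf9 in RNC (HB over HF), -0.85, was -1.29 without HF replicate 1 and -0.21 without HF replicate 2.

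Ifit1 shows how far HF RNC replicates can lie apart. It had 66 and 1708 reads there, or 10.2 and 234 CPM, a 23.0-fold difference, and 54.5 and 49.5 CPM in HB, between these values. Its log2 difference of -1.24 (HB over HF) became 2.35 without HF replicate 2. Irf7, at 162 and 261 CPM in HF and 189 and 191 CPM in HB, and Ifnar1, at 165.8 and 89.0 CPM in HF and 124 and 130.05 CPM in HB, also had HB values inside the HF range.

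**Figure D2:**
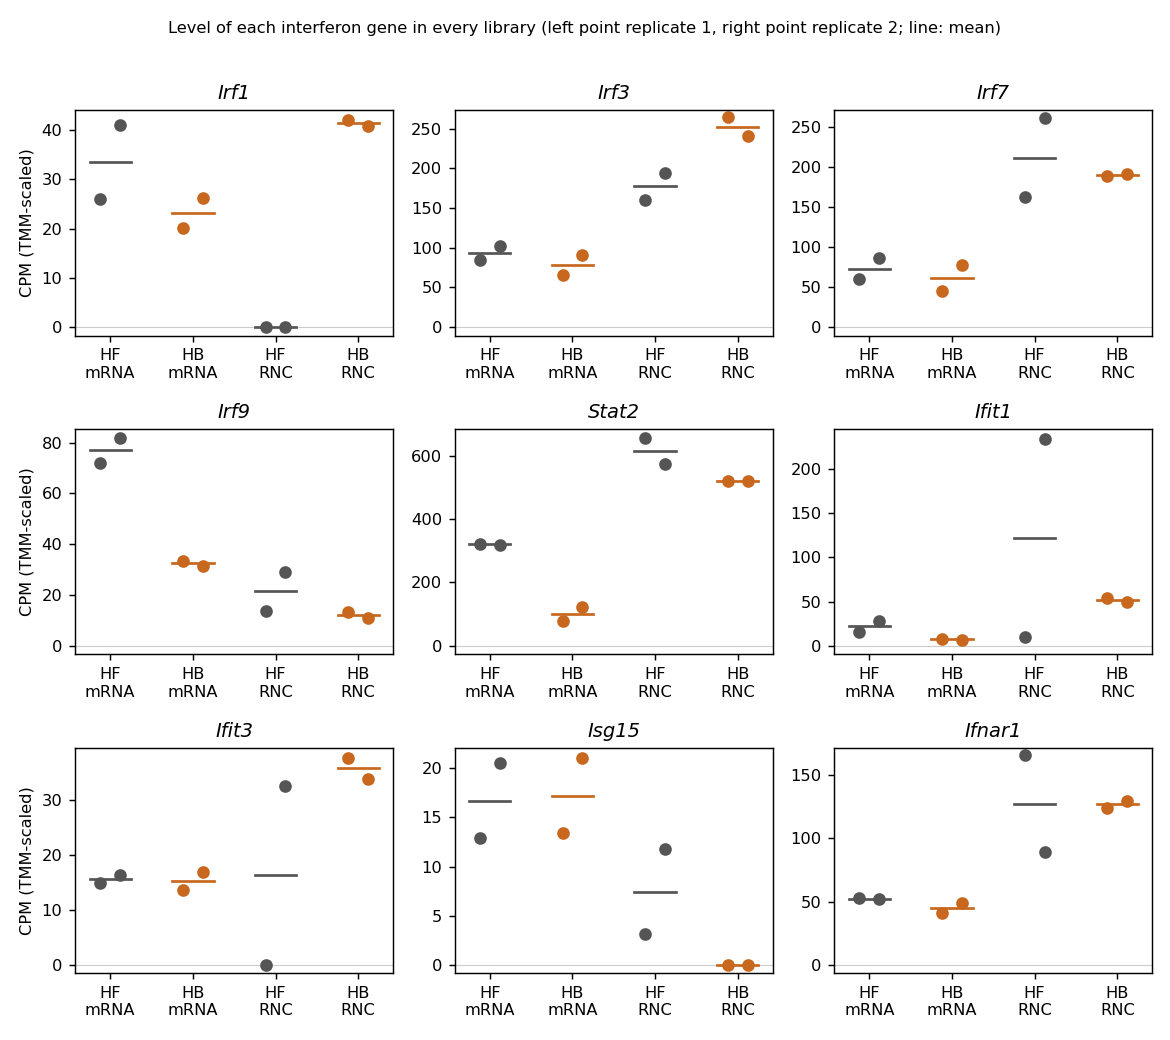
Level of each member in the 8 mRNA and RNC libraries, in CPM after TMM scaling, with a linear axis of its own in each panel; points are libraries and lines are group means. Stat2, Irf9 and Ifit1 mRNA is lower in both HB libraries, Irf1 is at 0 in both HF RNC libraries and Isg15 at 0 in both HB RNC libraries, and the HF RNC points of Ifit1 lie far apart (10.2 and 234 CPM).

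The RNC to mRNA ratio compares a gene's CPM in the 2 kinds of library. It is relative, and is not the share of an mRNA recovered with ribosomes. For Stat2 the log2 ratio was 0.94 in HF and 2.37 in HB, that is 1.92-fold and 5.18-fold. Its mRNA was 3.24-fold lower in HB and its RNC level 1.18-fold lower, so the higher ratio came without a higher RNC level. For Irf3 the log2 ratio was 0.92 and 1.69, for Ifit3 0.06 and 1.22, and for Irf9 -1.84 and -1.44. The HF value of Ifit3 averages a replicate with 0 RNC reads, and HF replicate 2 alone gave 0.998; HF replicate 2 of Irf9 gave -1.49, close to HB. Irf7 had ratios of 1.54 and 1.63, and Ifnar1 of 1.28 and 1.497. For Ifit1 the means gave 2.49 and 2.81, but its HF replicates gave -0.61 and 3.06, on both sides of HB. All 7 members with a ratio in both diets had the higher value in HB, and 4 of them did without HF RNC replicate 1. Without HF RNC replicate 2, Ifit3 had no HF ratio and 5 of the other members had the higher value in HB. The all-gene median was also higher in HB, at -0.17 (HF) and -0.06 (HB). The share of all genes with a higher ratio in HB was not counted, so the 7 cannot be set against it. Irf1 had a ratio in HB alone (0.84) and Isg15 in HF alone (-1.17). Of these 7, only Irf9 had a ratio below 0 in both diets.

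The genes whose log2 CPM over the 8 libraries most resembled that of Irf1 were Adgra2, Six5 and Agbl5, with Pearson's r of 0.999, 0.998 and 0.998 among 9602 genes with a mean of at least 5 CPM. Each had 0 reads in both HF RNC libraries, as Irf1 did. The r values include these libraries, whose counts also chose Irf1, so they restate that pattern and are no separate result. Among the wider interferon lists, Ifngr1, Mb21d1, Oas3, Oasl1, Ticam1 and Tlr3 also had 0 reads in both HF RNC libraries and at least 20 in each HB library, and Irf8 and Tor3a the reverse. Oas3 had 53 and 118 reads in HB, and Tor3a 335 and 95 reads in HF.

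m6A peaks were deposited per library, and a member was counted where a peak lay within its gene body (RefSeq, mm10). Of the 9 members, 8 had a peak in at least 1 library, and Irf1 had none in any of the 4 libraries. By library the count was 5 and 8 in HF and 6 and 5 in HB, against 60.5% and 63.5% of protein-coding genes in HF and 59.7% and 60.4% in HB. Stat2, Ifit1, Isg15 and Ifnar1 had a peak in all 4 libraries, as did 36.7% of genes, and 16.8% of genes had none. No test was made: an exact permutation test of 2 libraries against 2 cannot reach 0.05.

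The 40 peaks of the members formed 22 regions of overlapping peaks, of which 14 were seen in 1 library and 3 in all 4. The regions in all 4 lay in Ifit1 (chr19:34647911-34649482), Isg15 (chr4:156199606-156200208) and Ifnar1 (chr16:91491354-91491785). With a -log10 q of at least 10, or an overlap of at least 50% of both peaks, regions in all 4 numbered 2. In the Ifnar1 region the HB peaks (91491354-91491553 and 91491550-91491785) barely overlapped. That of HB replicate 1 had a fold of 6.16 and a -log10 q of 8.74. No region was in both HF libraries and in neither HB library. The reverse held for 1 region, in Ifnar1 (chr16:91507001-91507420). With peaks of a fold of at least 10 alone these counts turned round, to 1 region in both HF libraries and none in both HB libraries. That region lay in Ifnar1, in the region seen in all 4 libraries, where folds were 10.6 and 11.1 in HF and 6.16 and 7.35 in HB. The share of regions of each kind over all genes was not counted, so the members' region counts cannot be set against it.

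Near the 3′ end of Ifit1, with summits 1560 and 1572 bases from the end of the gene in HF and 1499 and 1603 bases in HB, the deposited fold enrichment was 20.3 and 43.7 in HF and 11.3 and 10.9 in HB. HB replicate 1 had another peak in this region, with a fold of 7.23, above 16.9% of the peaks of its library. Within its own library the HF peaks exceeded 96.3% and 99.5% of all peaks in fold, and the first-named HB peaks 52.4% and 69.8%. Peaks were called per library and no test was made, so no change can be inferred from these ranks. This region also lies in the annotated body of Ifit1bl1, which had 2 to 7 reads in the mRNA libraries. Stat2 had a region toward its 3′ end (chr10:128290975-128291688) in both HF libraries and in HB replicate 2, where the fold was 8.49, 20.0 and 13.7, while HB replicate 1 had a peak only upstream of it, 7309 bases from the gene's end. In Isg15 the 4 peaks of the shared region had summits 366 to 431 bases from the gene's end and folds of 8.48 and 13.9 in HF and 8.72 and 6.73 in HB, and HF replicate 2 had a further peak 1172 bases from that end (fold 8.01).

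Of the remaining members, Irf3 and Irf9 each had 1 peak in HF replicate 2 and 1 elsewhere in the gene in HB replicate 1, and Irf7 had 1 peak, in HF replicate 2. These did not recur in place. Ifit3 had a region shared by HF replicate 2 and HB replicate 2 (chr19:34588249-34588625). At a fold of at least 10, 1 member (Ifit1) had a peak in all 4 libraries and 4 members had any.

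**Figure D3:**
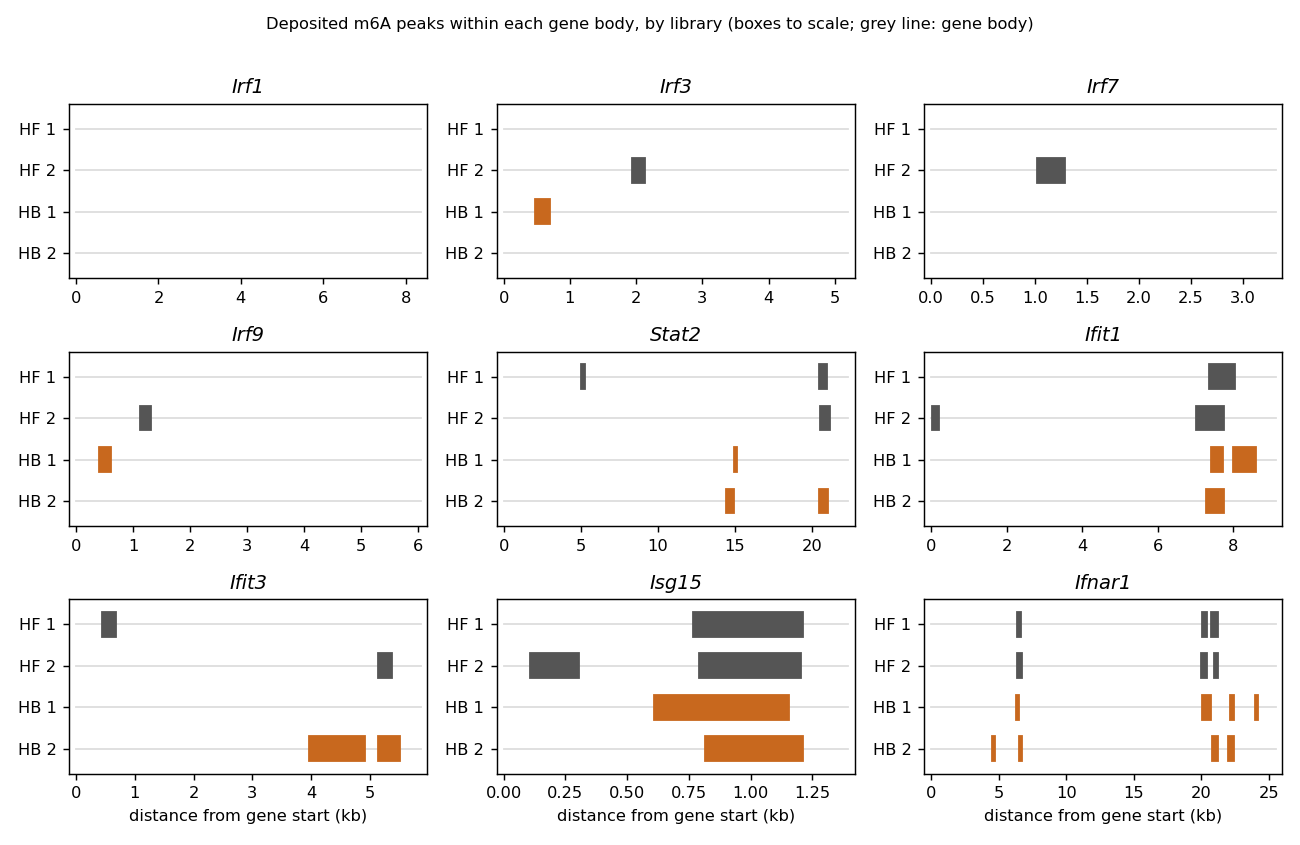
Deposited m6A peaks within the gene body of each member, drawn to scale by distance from the gene start in kb, with 1 row per library (HF grey, HB orange). Ifit1, Isg15 and Ifnar1 hold a region seen in all 4 rows, Irf1 holds none, and the peaks of Irf3, Irf7 and Irf9 do not line up between libraries.

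The wider pathway did not move in 1 direction in mRNA. Of 97 other interferon genes tested and reported here, 6 were higher and 5 lower, against 11.3% higher and 10.1% lower over all genes, with a median log2 change of -0.14 against 0.01. The counts of each list below are to be read against these shares. Among receptors and JAK-STAT signalling genes, 2 of the 16 reported here fell (Stat2 and Irf9).

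Among interferon regulatory factors, 2 of 11 fell, Irf9 and the corepressor Irf2bp2 (log2 change -1.14, adjusted p = 0.0256), whose call was lost without HF replicate 1 (0.2016) or HB replicate 1 (0.0838). Of 15 nucleic acid sensing genes 1 fell, the kinase Ikbke (-1.04, adjusted p = 0.0255), whose call was lost without HF replicate 1 (0.151) or HF replicate 2 (0.150). None of 12 interferon ligand genes could be tested: 10 had no read in any library, and the highest count was 2 reads.

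The 39 antiviral genes tested were divided, with 4 higher and 4 lower and a median of -0.13. Mx2, a dynamin-like antiviral GTPase, had 12.7 and 17.3 CPM in HF and 3.59 and 5.08 CPM in HB (log2 change -1.82, SE 0.36, edgeR adjusted p = 0.00908). Oas2, which makes the activator of RNase L, had 35.4 and 32.9 CPM in HF and 9.48 and 13.4 CPM in HB (-1.61, SE 0.31, adjusted p = 0.00854). Like Stat2, both stayed called without any 1 mRNA library. Ifit1 was the third of these, and Lgals3bp, a secreted glycoprotein, rose from 24.6 and 25.2 CPM to 82.2 and 59.8 CPM (1.49, adjusted p = 0.00817; 0.0601 without HF replicate 1). Ifit2, another relative of Ifit1, was low, with 3.25 and 3.70 CPM in HF and 4.18 and 1.88 CPM in HB (-0.22, adjusted p = 0.776).

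Genes of IFN-gamma and antigen presentation had a median of 0.28, with 2 of 26 higher and none lower. Psmb9, an immunoproteasome subunit, had 14.6 and 16.9 CPM in HF and 34.9 and 37.4 CPM in HB (1.17, edgeR adjusted p = 0.0179), a call lost without HF replicate 1 (0.213) or HF replicate 2 (0.107). Gbp2, an interferon-induced GTPase, was near the limit of detection, at 0 and 0.775 CPM in HF and 3.80 and 1.88 CPM in HB, and its call (adjusted p = 0.0406) was lost without HF replicate 1 (0.163), HB replicate 1 (0.281) or HB replicate 2 (0.0846).

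**Figure D4:**
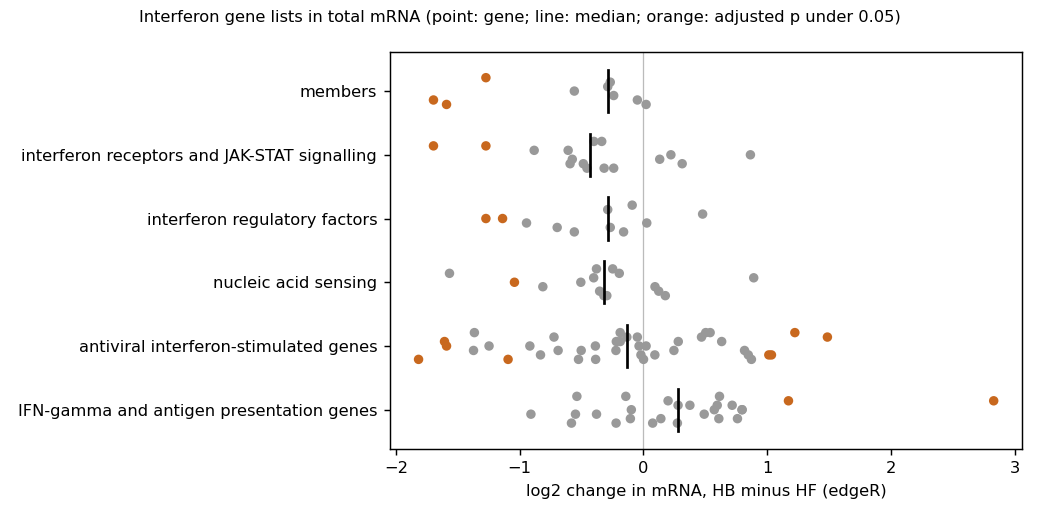
The log2 change in total mRNA (HB minus HF) of each tested gene in 6 interferon lists, as points, with the list's median as a line and genes at an adjusted p under 0.05 in orange. Medians run from -0.43 for receptors and JAK-STAT signalling to 0.28 for IFN-gamma and antigen presentation, and orange points lie on both sides of 0.

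Markers of some other liver cells also moved with diet in mRNA. Over all genes, 11.3% were called higher and 10.1% lower. Of 6 liver endothelial and 5 stellate cell markers none was called. Of 9 Kupffer cell and macrophage markers 4 were higher in HB, with a summed level of 258 and 290 CPM in HF and 408 and 374 CPM in HB. Clec4f, the most abundant of the 9, was not called and went the other way, at 174 and 157 CPM in HF and 142 and 150 CPM in HB. All 3 tested neutrophil markers were lower, and the 5 markers listed summed to 12.2 and 39.6 CPM in HF and 5.78 and 6.75 CPM in HB, and 3 of 5 red blood cell markers were higher. Of 4 plasmacytoid dendritic cell markers 2 could be tested. Siglech was lower, at 1.03 and 3.88 CPM in HF and 0.161 and 0.348 CPM in HB. Tcf4 was not called (log2 change -0.84, edgeR adjusted p = 0.0775). Ccr9 and Cd209d had at most 0.417 CPM in any mRNA library and were not lower in HB. T and NK cell markers summed to at most 4.57 CPM and B cell markers to at most 5.86 CPM. Their part in the members' differences was not tested, and in whole liver fewer cells of a type and less RNA per cell cannot be told apart.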

How the data were processed

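Livers of 2 diet groups were measured, and 12 of 16 samples were analysed, without the 4 inputs of the m6A assay, which are not analysed here. According to the design text and per the labels, the authors aligned mRNA and RNC reads to RefSeq transcripts, and the deposited read counts are unnormalized reads per gene. The deposited RPKM are, per the file headers, reads per kilobase of the longest transcript, by the authors. How reads matching several genes were treated is not given in the sources used here. For m6A, the labels' protocols give Trimmomatic 0.36 and TopHat 2.0.13; the submitters' processing notes name the build mm10 and, with no step for each, edgeR, HOMER 4.8, MACS2 2.1.0.20151222, the counter HTSeq 0.6.0, the aligner HISAT2 2.0.4 and cutadapt 1.9.3. The authors' deposited peaks give, per library, a fold enrichment (a ratio), a pileup signal, and −log10 p and −log10 q; damaged headers of the last kinds were read by MACS2 column order, in which column 8 was never below column 10. All deposited folds were at least 6.00, so the lists had been filtered.

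The members, lists and tests were chosen with earlier results of these data known, and so was the fit of the 4 mRNA libraries over one that also holds RNC. That fit (edgeR 4.0.16 in R 4.3.3) used TMM, filterByExpr, a quasi-likelihood F test and Benjamini-Hochberg adjustment at 0.05; SEs come from the log2 change and its F. It was also run on simulated counts with 1 dispersion for all genes, lower than the common dispersion of 0.064 in these libraries. That run does not vouch for the calls made here. All 9 members passed the filter. DESeq2 1.42.0 and limma 3.58.1 (on log2 of RPKM plus 1 or 0.1, with a trend) were alternatives. Peaks were assigned by gene body, since exons were not used here. All members are named; from each other list, up to 4 called genes with the largest change, or up to 2 with the smallest p, genes with RNC reads in 1 diet alone, Ifit2 and Ifit3b as relatives, and the 3 genes most like Irf1. One item of the planned lists is not reported here and is left out of the list counts and medians. Where a group had 0 reads, a floor of 3 reads over the group gave a bound, which covers counting error only.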

Additional observations from a re-analysis of the deposited data

How the results depend on the processing

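Across scalings, filters, tools, blocks and left-out libraries, Stat2 mRNA stayed lower and called except in the fit with the RNC libraries. That fit called 0 genes and 0 members (edgeR; 1644 genes at an unadjusted p under 0.05). Without 1 mRNA library the genes called numbered 784 to 3198, against 2740, and the members called lower 1 to 3. DESeq2 called 3021 genes and 3 members. Total counts called 3103 genes, 783 higher and 2320 lower, against 1446 and 1294; limma on RPKM plus 1 called 811 higher and 2077 lower, and plus 0.1, 845 and 2126. With the replicate block 2936 genes and 3 members were called. Same-numbered deviations correlated at -0.11, and crossed pairing, chosen after seeing the data, called 3407 genes and 3 members.

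Uncalled members changed sign: with 1 library left out, Irf7 ranged from -0.73 to 0.10, Ifit3 from -0.22 to 0.13 and Isg15 from -0.35 to 0.35; Isg15 was also -0.28 with total counts, -0.021 at 5 CPM or more, and -0.23 and -0.24 in limma. In RNC, members above every HF library numbered 3, or 4 and 5 with an HF library left out and 2 with total counts or RPKM; members below numbered 3, or 4 and 5 with an HF library left out; the RNC to mRNA ratio was higher in HB for 4 to 7. At a fold of at least 10, members with a peak in all 4 libraries fell to 1, in any to 4, and regions in all 4 to 1. The causes were not tested, except that the stricter fold removes peaks and left-out libraries reduce samples. Assignment by exons was not run. In HF RNC, 3 reads correspond to 0.462 and 0.412 CPM, which limits what a count of 0 shows.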

Other observations

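Some peaks lay within 1000 bases of a member but outside its gene body, in the body of a neighbour, and were not counted for the member. All 4 libraries had such a peak before the start of Stat2, in Apof, an apolipoprotein gene, with summits at positions -981 to -1016 from its start and deposited folds of 11.4 and 13.6 in HF and 7.63 and 6.35 in HB. Apof had 5626 and 6731 mRNA reads in HF and 16416 and 16516 in HB. HB replicate 1 alone had a peak in Scaf1 beside Irf3 (fold 10.2), in Phrf1 beside Irf7 (8.78) and in Rnf31 beside Irf9 (10.6). With these peaks included, an extension chosen after seeing the data, 8 members still had a peak and 4 still had one in all 4 libraries.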
